A study of Mus musculus with 8 samples.

Results

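Secretory epithelial genes were examined in thymic epithelial cells (TECs) taken from the mouse thymus and in TECs kept in culture. The set holds 9 of the 56923 genes counted. *Scgb3a1* and *Scgb1a1* encode secretoglobins, *Wfdc2* encodes a small secreted protein with whey acidic protein (WAP) domains, and *Ltf* and *Lcn2* encode iron-related antimicrobial proteins. *Muc1* and *Muc4* encode membrane mucins, *Msln* encodes the surface glycoprotein mesothelin, and *Pigr* encodes the receptor that carries polymeric immunoglobulins across epithelia. *Scgb3a1*, *Wfdc2* and *Msln* were placed in the set because their counts were higher in organoids. Their levels in organoids are therefore a description and carry no test, and they were tested only between the groups without organoids. The levels in those groups were also part of the choice, so these tests are not independent of it. Of the other 6 genes, 5 had enough reads to be tested in every comparison, and *Scgb1a1* did not.

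Bulk RNA was sequenced from 4 groups of wild-type C57BL/6J TECs with 2 libraries each, and all cells came from embryos at E16.5, the only embryonic age used. *In vivo* TECs were sorted as EpCAM-positive cells and lysed without culture. 2D-cultured TECs grew for 3 days on plates coated with laminin, until they formed a confluent layer. Organoids grew from sorted TECs in Matrigel, a basement membrane gel, and were collected after 3 days (D3) or 7 days (D7). Every culture received TEC medium, which contains the epithelial growth factor FGF7. No mesenchymal or haematopoietic cells were added to the organoids, and the 2D cultures were not carried to day 7, so that time and format cannot be told apart between D7 organoids and 2D. The 2 libraries of a group came from different mice.

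Secretory cells line the airways, glands and gut, where they release antimicrobial proteins, mucins and protease inhibitors onto the surface and move antibodies across it. Secretoglobins are small proteins made in abundance by club cells, the non-ciliated secretory cells of the airway, and *Scgb1a1* is the classical club cell gene. In the thymus, rare medullary TECs take on features of peripheral epithelia, airway secretory cells among them, and are called mimetic cells. Organoid cultures of other endodermal epithelia also contain secretory cells.

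The 8 libraries held 5084715 to 7612532 counts and 16748 to 19943 genes with at least 1 count. Ribosomal RNA genes took 22.7% to 29.4% of the counts. Expression is given as CPM, the reads of a gene per 1000000 reads of the library after scaling by trimmed mean of M-values (TMM) factors. The reads come from the 3′ ends of transcripts, and levels are compared between libraries and not between genes. *Epcam*, the surface marker used for the sort, lay at 191 and 204 CPM *in vivo*, 811 and 723 CPM in 2D, 593 and 568 CPM in D3 organoids and 440 and 441 CPM in D7 organoids. *Foxn1*, the transcription factor that defines TECs, was at 223 and 273 CPM *in vivo*, 8.52 and 4.82 CPM in 2D, 8.76 and 9.61 CPM in D3 organoids and 60.5 and 84.9 CPM in D7 organoids. In bulk RNA, fewer cells of a type and less RNA of a gene per cell cannot be told apart, and this holds for each level below.

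Upstream sequences were available for 7 of the 9 genes, from RefSeq, but the stretch before the first exon was shorter than 50 bases for *Wfdc2*. Stretches of at least 50 bases that hold a motif that was searched are shown. Each is the strand of the gene, placed on GRCm39 by exact match, and ends before the first exon of the canonical transcript. It is cut where an exon of another transcript begins. Capitals mark a match to AGGAAG (a core that ETS family factors bind), to TTNNGNAA (the letters of a C/EBP site) or to TATAAA (the TATA box), on either strand.
Scgb3a1, chr11:49554295-49554347, plus strand: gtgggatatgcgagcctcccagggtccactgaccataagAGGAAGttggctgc
Ltf, chr9:110848239-110848338, plus strand: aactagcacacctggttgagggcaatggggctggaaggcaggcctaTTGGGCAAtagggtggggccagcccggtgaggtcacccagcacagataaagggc
Muc1, chr3:89136254-89136353, plus strand: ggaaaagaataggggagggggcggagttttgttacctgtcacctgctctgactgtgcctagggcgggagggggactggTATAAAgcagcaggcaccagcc
Muc4, chr16:32554604-32554703, plus strand: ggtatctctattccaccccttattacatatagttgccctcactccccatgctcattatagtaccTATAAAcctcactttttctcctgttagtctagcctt

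Over the 250 bases before the RefSeq start, the ETS core was found in *Scgb3a1*, *Wfdc2*, *Ltf* and *Lcn2*, which held 1, 2, 1 and 3 matches. It was not found in *Muc1*, *Muc4* or *Pigr*. The core was present in 29.5% of 32851 promoter windows of this length. The C/EBP letters were found in *Wfdc2*, *Ltf*, *Lcn2* and *Muc4* and in 36.8% of all windows. Of the 7 genes, TATAAA was found only in *Muc1* and *Muc4*, starting 31 and 36 bases before the start, and in 12.4% of all windows. Both genes with this box were membrane mucins, and no motif was shared by all 7 genes. The matches are letters in a window and were not tested for binding.

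*Scgb3a1* went from at most 28 reads in a library of the other groups to at least 1009 reads in a D7 library. Its counts were 6 and 15 *in vivo*, 0 and 1 in 2D, 9 and 28 in D3 organoids, and 1009 and 2181 in D7 organoids. In CPM, D7 organoids held 125 and 430, against 1.04 and 2.11 *in vivo* and 1.52 and 3.90 in D3 organoids. Both D7 libraries therefore lay far above the 6 others, while D3 organoids and *in vivo* TECs overlapped. The mean of D7 organoids was 277 CPM ± 216 (SD, n = 2), and the 2 libraries differed from each other 3.44-fold. The fitted log2 fold change of D7 organoids was 7.39 over *in vivo* TECs (SE 0.57) and 6.62 over D3 organoids (SE 0.53). Over 2D, where the group held 1 read in all, the ratio of pooled counts was 2646, with an exact 95% interval of 474.5 to 1.045e+05 that covers counting error only. Between *in vivo* TECs and 2D, the comparison without organoids, the difference of 21 reads against 1 had an adjusted p of 0.078 in edgeR and did not pass the threshold of 0.05. The choice of the gene had also drawn on these libraries, so this p value is not independent of it.

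*Scgb1a1* did not follow at a comparable level. It had 0 and 1 reads *in vivo*, 0 and 0 in 2D, 0 and 2 in D3 organoids, and 0 and 17 in D7 organoids. A single library, D7 replicate 2, held most of its reads, at 3.35 CPM. The gene did not reach 1 CPM in 3 libraries and was not fitted. The pooled ratio of D7 organoids to *in vivo* TECs was 16.6, with an exact 95% interval of 2.61 to 695 for counting error. In the other D7 library 0 reads were counted, so the groups overlapped.

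The related *Scgb3a2*, which is no member of the set, was the 1 other secretoglobin that could be tested, and 8 of the 11 secretoglobin genes on the list had no read in any library. Its reads numbered 0 and 54 *in vivo*, 0 and 1 in 2D, 0 and 9 in D3 organoids, and 7 and 2047 in D7 organoids. In D7 organoids that is 0.866 and 403 CPM. D7 organoids passed the threshold against *in vivo* TECs (log2 fold change 5.62, SE 1.40, adjusted p = 0.0048 in edgeR), although the groups overlapped and replicate 2 held nearly all of the reads of each group. Without D7 replicate 2 or *in vivo* replicate 2 it had too few reads to be fitted. The adjusted p against *in vivo* TECs was 0.57 in limma-voom and 0.25 with the DESeq2 Wald test. Each of the 3 secretoglobins with reads was higher in replicate 2 in each group in which it had any, as the plot of secretoglobin reads shows.

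**Figure D1:**
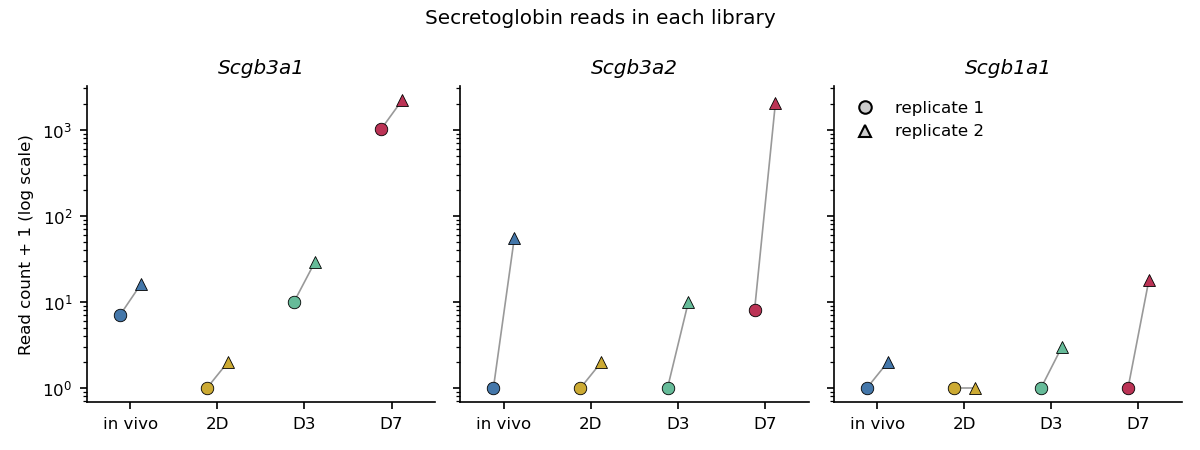
Read counts plus 1, on a log scale, of 3 secretoglobin genes in the 4 groups, with a circle for replicate 1, a triangle for replicate 2 and a line joining the 2 libraries of a group. *Scgb3a1* was high in both D7 libraries (1009 and 2181 reads), while *Scgb3a2* (7 and 2047 reads) and *Scgb1a1* (0 and 17 reads) were high in D7 replicate 2 only.

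*Wfdc2*, also known as HE4, was the only one of the 9 genes whose 4 groups were all apart from each other in an order that followed the culture from *in vivo* to 2D to D3 to D7. It stood at 60.04 and 59.75 CPM *in vivo*, 242 and 213 CPM in 2D, 886 and 1038 CPM in D3 organoids and 1811 and 2099 CPM in D7 organoids. The libraries of a group differed by at most 1.17-fold. D3 organoids were 16.1-fold and D7 organoids 32.6-fold above *in vivo* TECs in the fit, and D7 organoids were 2.03-fold above D3 organoids. In the comparison without organoids, *Wfdc2* was 3.802-fold lower *in vivo* than in 2D (log2 fold change −1.93, SE 0.16, adjusted p = 2.6e-08 in edgeR). That p value is not independent of the choice of the gene, which had also drawn on these libraries. The gene was thus higher in each of the 3 cultures than in uncultured TECs, and higher in organoids than in 2D at both times.

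Of the 12 other WAP domain genes on the list, only 3 had enough reads to be tested. *Wfdc18* was at 12.7 and 12.1 CPM *in vivo*, 112 and 85.0 CPM in 2D, 8.26 and 16.4 CPM in D3 organoids and 108 and 117 CPM in D7 organoids. *Slpi*, an antiprotease of mucosal secretions, was at 0 and 0.703 CPM *in vivo*, 5.62 and 5.19 CPM in 2D, 0 and 0.557 CPM in D3 organoids and 5.57 and 9.26 CPM in D7 organoids. Both rose in D7 organoids against *in vivo* TECs and against D3 organoids, and neither passed the threshold against 2D. *Slpi* passed the filter on low counts only through the 2D and D7 libraries, so the groups in which it was high let it into the fit. Without D7 replicate 2, *Slpi* had an adjusted p of 0.057 against D3 organoids in edgeR. Their course, high in 2D and in D7 and low *in vivo* and in D3, was not that of *Wfdc2*.

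*Ltf* encodes lactoferrin, which binds iron and is secreted by mucosal glands. It was at 0.868 and 0.562 CPM *in vivo*, 9.79 and 8.71 CPM in 2D, 0.842 and 0.279 CPM in D3 organoids and 8.53 and 29.0 CPM in D7 organoids. The D7 libraries differed from each other 3.39-fold, and replicate 1 lay below both 2D libraries. *Ltf* rose in D7 organoids over *in vivo* TECs (log2 fold change 4.68, SE 0.67, adjusted p = 3.8e-05 in edgeR) and over D3 organoids (5.05, SE 0.69, adjusted p = 1.1e-04). Without D7 replicate 1 or 2, the value over *in vivo* TECs was 5.32 or 3.57. Against 2D the difference was 0.999 (SE 0.51, adjusted p = 0.12), which was 1.65 without D7 replicate 1, then past the threshold (adjusted p = 0.022), and −0.11 without D7 replicate 2. D3 organoids lay below 2D (−4.05, adjusted p = 2.1e-04), and so did *in vivo* TECs (−3.68, adjusted p = 3.3e-04). *Ltf* passed the filter on low counts only through the 2D and D7 libraries, so the groups in which it was high let it into the fit.

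*Lcn2* encodes lipocalin 2, which withholds iron from bacteria by binding their siderophores. It was at 1.39 and 16.5 CPM *in vivo*, 186 and 177 CPM in 2D, 27.3 and 38.0 CPM in D3 organoids and 132 and 143 CPM in D7 organoids. Here 2D was the highest group, and no 2 groups overlapped. The 2 *in vivo* libraries differed 11.9-fold, with 8 and 117 reads. D7 organoids were above *in vivo* TECs by 3.89 on the log2 scale (SE 0.47, adjusted p = 5.9e-06 in edgeR), and without *in vivo* replicate 1 or 2 the value was 3.06 or 6.61. Their difference from 2D was −0.40 (SE 0.39, adjusted p = 0.43). They were above D3 organoids by 2.07 (SE 0.41, adjusted p = 0.0020), a call that was lost with the DESeq2 Wald test (adjusted p = 0.15) and without D3 replicate 1 (adjusted p = 0.051). *In vivo* TECs were far below 2D (log2 fold change −4.28, adjusted p = 1.1e-06 in edgeR). D3 organoids lay below 2D (−2.47, adjusted p = 1.5e-04) and above *in vivo* TECs by 1.81 (adjusted p = 0.0076). That last call was lost with the DESeq2 Wald test (adjusted p = 0.18) and without D3 replicate 2 (adjusted p = 0.065). *Lcn2* was the only one of the 5 tested genes that passed the threshold as higher in D3 organoids than *in vivo*.

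Among the other antimicrobial and iron-binding proteins on the list, 11 were tested. In D7 organoids 10 rose against *in vivo* TECs and 9 against 2D, and none of the 11 fell in either comparison, while over all genes 18.0% and 24.4% were higher. The 10 included *Slpi*, which passed the filter on low counts only through the 2D and D7 libraries. The median log2 fold changes of the list were 4.63 and 2.94, beside 0.01 and 0.10 over all genes. *Reg3g*, a lectin directed at Gram-positive bacteria, went from 3.82 and 1.55 CPM *in vivo* to 40.8 and 242 CPM in D7 organoids. *Cp*, the copper-carrying ferroxidase ceruloplasmin, was at 1.735 and 3.796 CPM *in vivo*, 35.9 and 38.3 CPM in 2D, 5.05 and 9.33 CPM in D3 organoids and 69.0 and 110 CPM in D7 organoids. *Hp*, haptoglobin, reached 18.4 and 29.9 CPM in D7 organoids and was at most 2.72 CPM in the 6 other libraries.

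*Muc1*, a mucin anchored in the apical membrane, had 2 and 0 reads *in vivo*, 48 and 31 in 2D, 3 and 2 in D3 organoids, and 13 and 33 in D7 organoids. In CPM, 2D held 8.70 and 5.74 and D7 organoids 1.61 and 6.50, so these groups overlapped, and their difference did not pass the threshold (log2 fold change −0.87, SE 0.79, adjusted p = 0.40 in edgeR). D7 organoids passed it against *in vivo* TECs (adjusted p = 0.0058), with a pooled ratio of 22.5 and an exact 95% counting interval of 5.89 to 191. Without D7 replicate 2 the adjusted p was 0.12. The 2D group lay above *in vivo* TECs by a pooled ratio of 46.6 (12.5 to 391.5, adjusted p = 0.0010). The difference between D7 and D3 organoids was 3.30 (adjusted p = 0.027), and limma-voom gave it an adjusted p of 0.11. It was also lost without either D3 library or D7 replicate 2 (adjusted p 0.095 to 0.41). *Muc1* was also lower in D3 organoids than in 2D (−4.16, adjusted p = 0.0031). It passed the filter on low counts only through the 2D and D7 libraries, so the groups in which it was high let it into the fit.

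*Muc4*, a large membrane mucin of the airway surface, had reads in quantity in D7 organoids only. Its counts were 0 and 0 *in vivo*, 1 and 1 in 2D, 1 and 7 in D3 organoids and 43 and 34 in D7 organoids, the last being 5.32 and 6.70 CPM. D7 organoids were at least 25.1-fold higher than *in vivo* TECs, taking 3 counts over the group as the floor (adjusted p = 8.8e-04 in edgeR). Against 2D the pooled ratio was 31.9, with an exact 95% interval of 8.54 to 268 for counting error (adjusted p = 0.0033). Against D3 organoids the log2 fold change was 3.30 (SE 1.002, adjusted p = 0.028), which was 2.59 with an adjusted p of 0.15 without D3 replicate 1. The 8 reads of D3 organoids against 0 *in vivo* had an adjusted p of 0.066, which was 0.047 with no filter on low counts. *Muc4* passed the filter on low counts through both D7 libraries and D3 replicate 2 alone, so that the groups in which it was high let it into the fit, and it could not be fitted without any 1 of these 3. With no filter, its adjusted p in D7 organoids was 6.4e-06 against *in vivo* TECs, 0.00046 against 2D and 0.017 against D3 organoids. *Muc4* overlaps *Muc20* on the other strand, and their exons share 381 bases. *Muc20* had 0 to 8 reads in the 6 other libraries and 79 and 62 in D7 organoids. Whether counting used the strand is not stated, so reads of the 2 genes could not be told apart where they overlap.

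Of the gel-forming airway mucins, *Muc5b* had 0 to 5 reads in the libraries other than D7 and 23 and 26 in D7 organoids, too few to be fitted, and *Muc5ac* had at most 1 read in any library. Both were chosen after their values were seen. The mucin list had 6 tested genes outside the set. Of these 2 rose and 2 fell in D7 organoids against *in vivo* TECs, beside 18.0% of all genes higher and 16.8% lower. Leaving out any 1 library left 0 or 1 that rose and 1 or 2 that fell. The most abundant, *Cd164*, a sialomucin of many cell types, fell from 312 and 243 CPM to 165 and 122 CPM. *Mcam*, an adhesion molecule, was at 299 and 280 CPM in 2D and at most 12.6 CPM elsewhere.

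*Msln* had the same course as *Wfdc18*, high in 2D and in D7 organoids and low in the other groups. It was at 4.34 and 4.36 CPM *in vivo*, 36.3 and 40.2 CPM in 2D, 4.04 and 5.43 CPM in D3 organoids and 62.6 and 76.8 CPM in D7 organoids. D3 organoids and *in vivo* TECs overlapped, so the higher level of the gene in organoids was seen at day 7 and not at day 3. In the fit, D7 organoids were above *in vivo* TECs by 3.99 (SE 0.26), above D3 organoids by 3.86 (SE 0.26) and above 2D by 0.86 (SE 0.21) on the log2 scale. In the comparison without organoids, *Msln* was 8.75-fold lower *in vivo* than in 2D (log2 fold change −3.13, SE 0.26, adjusted p = 4.0e-08 in edgeR). As for *Wfdc2*, the choice of the gene had also drawn on these libraries, so the p value is not independent of it. Mesothelin is best known from the mesothelium, the lining of body cavities. Of 14 mesothelial genes, *Wt1* and *Aldh1a2* had no read in any library and *Upk3b* had at most 3. Of the 8 that were tested, *Krt19*, *Rspo1*, *Cpe* and *Gpm6a* rose and 2 fell in D7 organoids against *in vivo* TECs, and 4 rose and 3 fell against 2D, or 2 rose without D7 replicate 1. The 2 that fell against *in vivo* TECs were *Pkhd1l1*, from 42.3 and 59.3 CPM to 4.21 and 1.97 CPM, and *Bnc1*, from 44.4 and 22.5 CPM to 4.95 and 2.955 CPM. Against 2D, *Rspo1*, *Gpm6a*, *Upk1b* and *Pkhd1l1* rose and *Cpe*, *Bnc1* and *Krt19* fell. Over all genes 18.0% were higher and 16.8% lower against *in vivo* TECs, and 24.4% and 21.1% against 2D. The summed level of the mesothelial list was 125 and 129 CPM *in vivo*, 564 and 577 in 2D, 163 and 154 in D3 organoids and 155 and 197 in D7 organoids. Its most abundant gene was *Krt19*, a keratin that simple epithelia also make.

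*Pigr*, like *Muc4*, was high in both D7 libraries and low in 2D. It had 1 and 16 reads *in vivo*, 5 and 2 in 2D, 23 and 8 in D3 organoids and 136 and 104 in D7 organoids. In D7 organoids that is 16.8 and 20.5 CPM, above every other library, the next being 3.87 CPM in D3 replicate 1. *Pigr* rose in D7 organoids over *in vivo* TECs (log2 fold change 3.85, SE 0.72, adjusted p = 4.7e-04 in edgeR), over 2D (4.82, SE 0.80, adjusted p = 1.2e-04) and over D3 organoids (2.92, SE 0.67, adjusted p = 0.0051). Without *in vivo* replicate 1 or 2, the value over *in vivo* TECs was 3.03 or 6.58. The call against D3 organoids was lost without D3 replicate 2 (adjusted p = 0.067) and without D7 replicate 2 (adjusted p = 0.073). The other groups did not differ from one another past the threshold (adjusted p 0.10 to 0.44 in edgeR), and their libraries differed up to 12.96-fold within a group, at few reads. With no filter on low counts, D3 organoids over 2D had an adjusted p of 0.031 in edgeR. The absence of a rise in D3 organoids was not firm. Over the libraries left out, their log2 fold change ranged from −0.19 to 3.67 over *in vivo* TECs and from 0.78 to 2.65 over 2D.

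**Figure D2:**
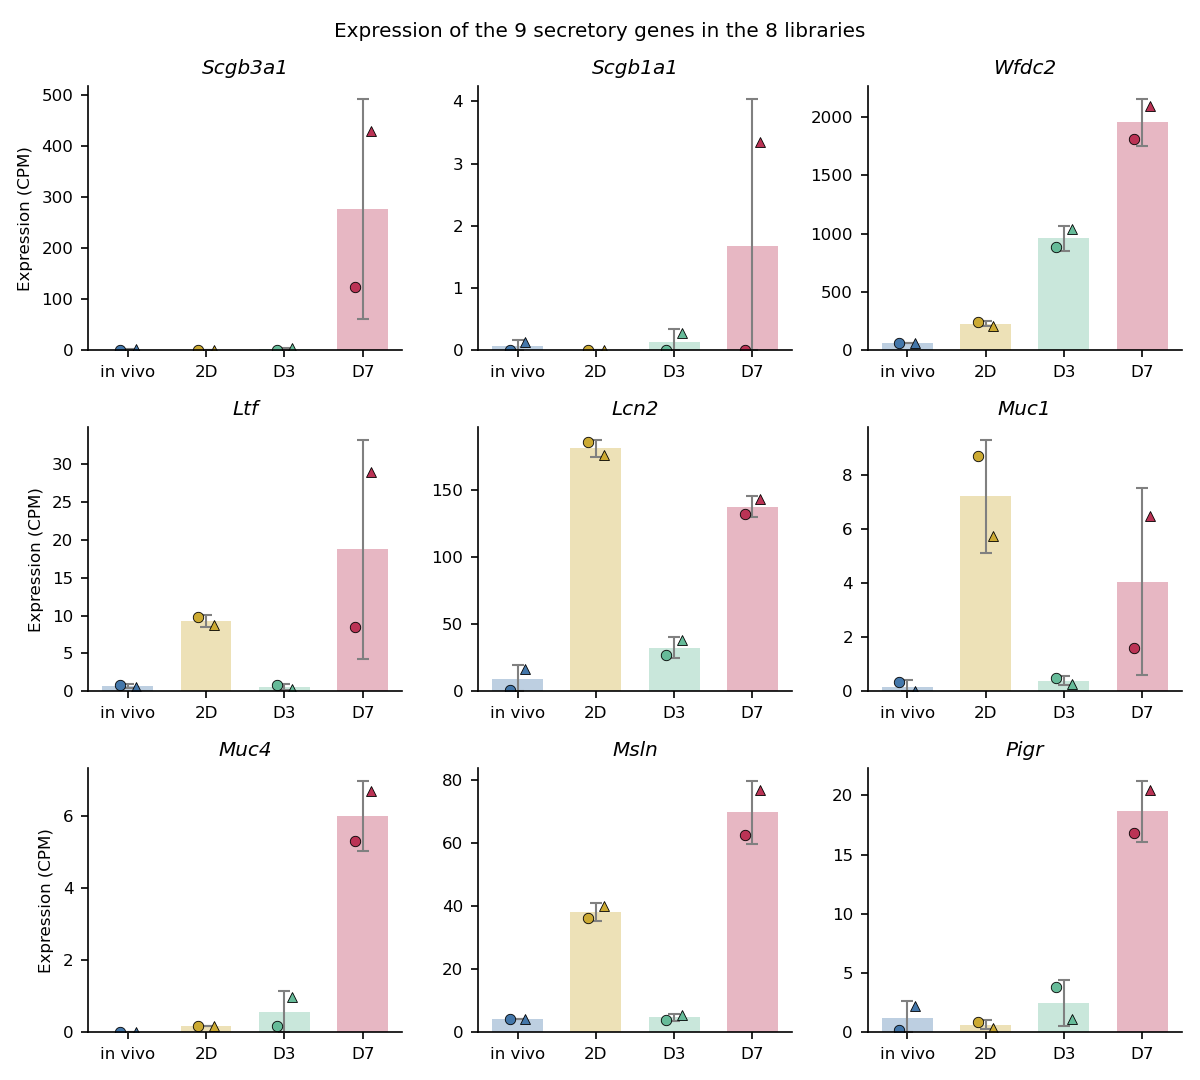
Expression in CPM of the 9 genes, with a bar for the mean of a group, an error bar for the SD (n = 2, stopped at 0), a circle for replicate 1 and a triangle for replicate 2, each panel on its own linear axis from 0. *Wfdc2* climbed from 59.9 CPM *in vivo* to 1955 CPM in D7 organoids, *Lcn2* and *Muc1* had their highest mean in 2D, and *Scgb3a1* and *Pigr* were low in all groups but D7.

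Across the set, 5 of the 9 genes were above every other library in both D7 libraries, which was also the case for 14.3% of all 14504 genes tested, and 3 of those 5 were the genes chosen by their levels. Of the 6 other genes, *Ltf*, *Lcn2*, *Muc1*, *Muc4* and *Pigr* passed the threshold as higher in D7 organoids than *in vivo*, where 18.0% of all genes were called higher and 34.8% were called in either direction. This count is a description, because *Muc4* passed the filter on low counts only through organoid libraries, *Ltf* and *Muc1* only through 2D and D7 libraries, and *Scgb1a1* did not pass it. With no filter the same 5 of the 6 were called and *Scgb1a1* had an adjusted p of 0.21. With at least 10 CPM in at least 2 libraries, or with only the 4 libraries compared, *Lcn2* and *Pigr* were left to test and both were called. Without D7 replicate 2, 3 were called, since *Muc1* lost its call and *Muc4* could not be fitted. Against D3 organoids the same 5 were higher, with 10.9% of all genes higher, 9.9% lower and 20.8% called. That number was 2 without D7 replicate 2 and without either D3 library. Against 2D, only *Muc4* and *Pigr* passed the threshold, both higher, with 45.5% of all genes called, and without D7 replicate 2 only *Pigr* did. The 3 others, *Ltf*, *Lcn2* and *Muc1*, had adjusted p values of 0.12 to 0.43 in edgeR.

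In D3 organoids the set was mostly low, apart from *Wfdc2*. *Lcn2* alone of the 5 passed the threshold as higher than *in vivo*, with 28.2% of all genes called. Against 2D, *Ltf*, *Lcn2* and *Muc1* were called lower, none was called higher, and 38.3% of all genes were called. Between *in vivo* TECs and 2D, where all 8 fitted genes could be tested, *Wfdc2*, *Ltf*, *Lcn2*, *Muc1* and *Msln* were called lower *in vivo* and no gene was called higher. Over all genes 41.6% were called, 19.9% lower and 21.7% higher. These 5 genes were thus also higher in flat culture than in uncultured TECs. For *Wfdc2* and *Msln*, the choice by level had also drawn on these libraries. *Scgb3a1*, *Muc4* and *Pigr* had 7 reads or fewer in all in 2D.

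**Figure D3:**
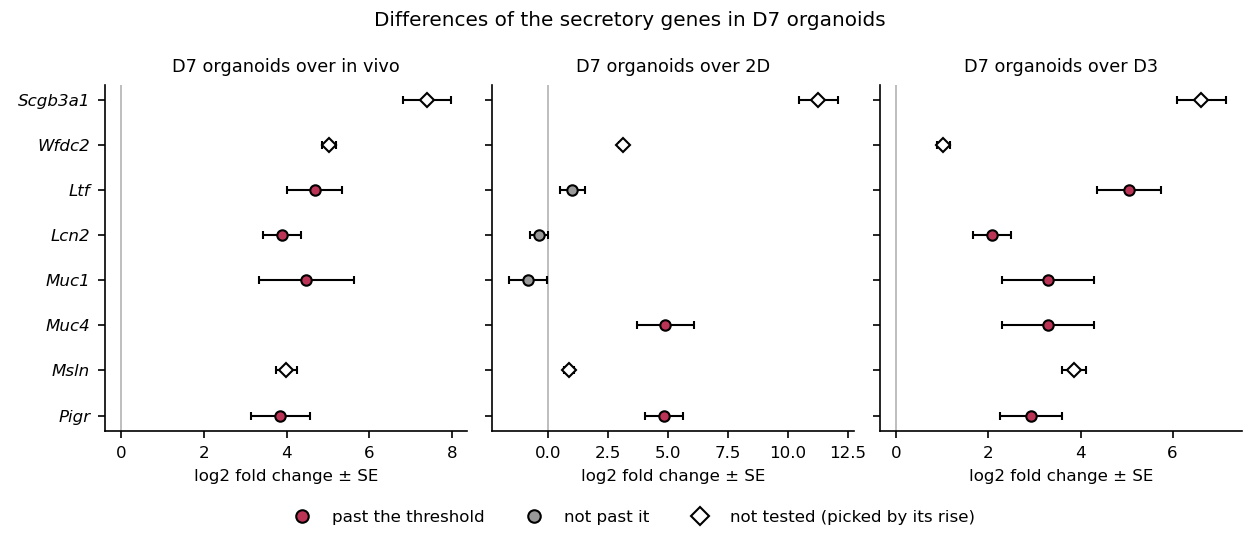
Log2 fold changes with their SE from edgeR for D7 organoids over *in vivo* TECs, over 2D and over D3 organoids, with filled circles for tested genes (red past the adjusted p threshold of 0.05, grey not past it) and open diamonds for the 3 genes that were not tested because they were chosen by their levels. *Muc4* over *in vivo* TECs (no reads there) and *Scgb1a1* (not fitted) are left out, and over 2D the values of *Ltf*, *Lcn2* and *Muc1* lay between −0.87 and 0.999.

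The list of other genes known from airway secretory cells held 24 tested genes. In D7 organoids 21 of them rose and none fell against *in vivo* TECs, with a median log2 fold change of 3.69, where 18.0% of all genes were higher. Against D3 organoids 20 rose and none fell, with 10.9% of all genes higher. Against 2D 19 rose and 5 fell, with 24.4% of all genes higher and 21.1% lower, the 5 being *Krt7*, *Anxa3*, *Gabrp*, *Krt19* and *Aqp5*. Over the alternatives that left out no single library, 18 to 27 rose against *in vivo* TECs, 18 to 25 against D3 organoids and 14 to 23 against 2D. The number of genes fitted also changed with the filter. *Scgb3a2*, with nearly all of its reads in replicate 2, was among the 21. *Hp* and *Reg3g* are also on the antimicrobial list, so the 2 lists are not separate. In D3 organoids 9 of the 24 rose and 3 fell against *in vivo* TECs, with 14.1% and 14.0% of all genes. The genes were not all particular to the airway, since *Atp1b1*, a subunit of the sodium pump, and *Krt19* are made by many epithelia.

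*Bpifa1*, a secreted protein of the upper airway lining, was at 242 and 256 CPM *in vivo*, 104 and 100 CPM in 2D, 394 and 518 CPM in D3 organoids and 1945 and 1716 CPM in D7 organoids. *Fmo2*, a flavin monooxygenase abundant in lung, went from 0.868 and 0.703 CPM *in vivo* to 349 and 324 CPM in D3 and 1147 and 1058 CPM in D7 organoids. *Cldn10*, a claudin of secretory airway cells, reached 21.8 and 17.3 CPM in D7 organoids and stayed at or below 1.30 CPM elsewhere. *Cyp2f2*, a cytochrome P450 typical of club cells that was singled out after its values were seen, went from 5.38 and 11.7 CPM *in vivo* to 228 and 295 CPM in D7 organoids and was at 0.544 and 1.48 CPM in 2D. *Krt7* ran the other way, with 1740 and 1739 CPM in 2D and 23.2 to 52.4 CPM in the other groups.

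**Figure D4:**
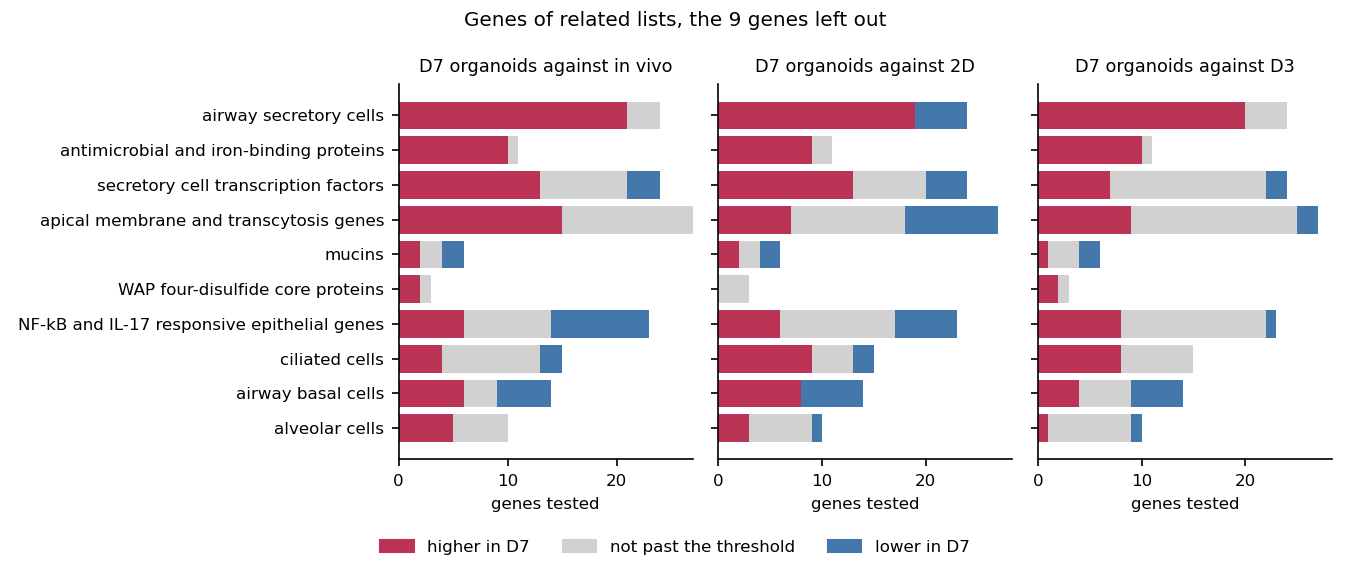
Numbers of tested genes of 10 lists, with the 9 genes of the set left out, that were higher in D7 organoids (red), lower (blue) or not past the threshold (grey) against *in vivo* TECs, 2D and D3 organoids. The airway secretory list had 21, 19 and 20 genes higher of 24, and the list of NF-κB and IL-17 responsive genes had 6, 6 and 8 higher of 23.

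Transcription factors of secretory epithelia moved in both directions. Of 24 tested, 13 rose and 3 fell in D7 organoids against *in vivo* TECs, 13 rose and 4 fell against 2D, and 7 rose and 2 fell against D3 organoids. Over all genes 18.0% were higher and 16.8% lower in the comparison with *in vivo* TECs, 24.4% and 21.1% in that with 2D, and 10.9% and 9.9% in that with D3 organoids. Against *in vivo* TECs, 8 rose with at least 10 CPM in at least 2 libraries and 9 with only the 4 libraries of the groups compared. The number that rose over 2D was 7 without either D7 library and 8 without 2D replicate 1 or with at least 10 CPM in at least 2 libraries, and that over D3 organoids was 4 without D7 replicate 2. *Ehf*, an ETS factor of epithelia, was at 17.4 and 14.6 CPM *in vivo*, 43.0 and 39.8 CPM in 2D, 25.3 and 12.3 CPM in D3 organoids and 138 and 154 CPM in D7 organoids. *Sox2*, which marks the proximal airway, went from 2.26 and 0.422 CPM *in vivo* to 12.6 and 26.2 CPM in D7 organoids. *Klf5* rose from 19.4 and 34.3 CPM to 162 and 178 CPM. *Hes1*, a Notch target, fell from 640 and 435 CPM to 89.1 and 55.0 CPM, and *Xbp1*, a regulator of the secretory machinery, fell from 162 and 141 CPM to 32.4 and 30.3 CPM. *Nkx2-1*, the transcription factor of lung and thyroid endoderm, had no reads *in vivo* or in 2D, 0 and 3 in D3 organoids and 7 and 1 in D7 organoids, and *Sftpc*, the alveolar surfactant gene, had 6 and 2 reads in D7 organoids and 0 in all other libraries.

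Genes of the apical membrane and of transcytosis, the route that PIGR serves, numbered 27 tested. Against *in vivo* TECs 15 rose in D7 organoids and none fell, while against 2D 7 rose and 9 fell, beside 18.0% of all genes higher in the first comparison and 24.4% higher and 21.1% lower in the second. *Rab17*, a GTPase of transcytosis, was at 0 and 0.703 CPM *in vivo*, 0.544 and 2.96 CPM in 2D, 3.37 and 4.74 CPM in D3 organoids and 11.2 and 17.1 CPM in D7 organoids. *Rab25*, of apical recycling, was highest in 2D (40.4 and 43.0 CPM) and reached 19.9 and 28.8 CPM in D7 organoids from 0.174 and 1.55 CPM *in vivo*.

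*Lcn2* and *Pigr* are known targets of NF-κB and IL-17 signalling. Of 23 other tested genes that respond to these signals in epithelia, 6 rose and 9 fell in D7 organoids against *in vivo* TECs, and 6 rose and 6 fell against 2D. Over all genes 18.0% were higher and 16.8% lower against *in vivo* TECs, and 24.4% and 21.1% against 2D, so that the counts against 2D lay near the share over all genes. Against D3 organoids 8 rose, a number that was 3 without D3 replicate 2 and 4 without D7 replicate 1. Without D7 replicate 2 the number that fell against *in vivo* TECs was 5. *Nfkbia* fell from 848 and 966 CPM *in vivo* to 427 and 362 CPM, and *Nfkbiz* fell from 84.0 and 78.6 CPM to 20.9 and 25.6 CPM. *Birc3* fell from 41.8 and 42.7 CPM to 10.3 and 5.52 CPM. *Il17re* rose from 3.64 and 0.984 CPM to 32.4 and 25.4 CPM. *Tnfaip2* rose from 31.6 and 37.4 CPM to 159 and 147 CPM, and *C3* from 5.38 and 6.61 CPM to 31.0 and 33.9 CPM. *Cxcl5*, a chemokine, was at 0.868 and 13.6 CPM *in vivo*, 182 and 182 CPM in 2D, 21.6 and 25.8 CPM in D3 organoids and 25.2 and 28.6 CPM in D7 organoids. Like *Lcn2* it was highest in 2D and far apart between the *in vivo* libraries, but unlike *Lcn2* it stayed below 2D in D7 organoids (log2 fold change −2.76, adjusted p = 6e-05 in edgeR).

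Other airway and lung lists were mixed, beside 18.0% of all genes higher and 16.8% lower in D7 organoids against *in vivo* TECs. Of 15 ciliated cell genes, 9 rose and 2 fell in D7 organoids against 2D, with 24.4% of all genes higher and 21.1% lower. *Foxj1*, their master regulator, was among the 2 that fell. It was at 11.8 and 9.98 CPM *in vivo*, 109 and 123 CPM in 2D and 6.68 and 4.93 CPM in D7 organoids. Against *in vivo* TECs, 4 of the 15 ciliated cell genes rose and 2 fell in D7 organoids. Leaving out any 1 library left 1 to 3 that rose, the fewest without *in vivo* replicate 1 or D7 replicate 2, and 1 that fell. Of 14 airway basal cell genes, 6 rose and 5 fell, and 3 fell without D7 replicate 2. *Krt15* rose from 7.635 and 10.97 CPM to 153 and 173 CPM, while *Krt5* fell from 267 and 249 CPM to 72.2 and 66.8 CPM. Of 10 alveolar cell genes, 5 rose and none fell, *Pdpn* and *Etv5* among them. Of 10 regulators of mimetic medullary TECs, 5 rose and 1, *Spib*, fell, and with no filter on low counts 6 rose and 5 fell. Of 19 genes of the thymic epithelium, 4 rose and 13 fell.

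*Ltf* and *Lcn2* are also granule genes of neutrophils. Of 19 neutrophil genes, 8 had no read in any library, among them *Ngp*, *Mpo*, *Elane* and *Csf3r*. *S100a8* had 38 and 44 reads *in vivo* and none in D7 organoids. Only 3 of the list were tested. *Camp*, a granule antimicrobial peptide, was at 1.21 and 0 CPM *in vivo* and 5.44 and 4.53 CPM in D7 organoids (log2 fold change 3.09, adjusted p = 0.021 in edgeR), a call that was lost without *in vivo* replicate 2 or either D7 library. *Lyz2* and *Mmp9* rose in D7 organoids over D3 organoids by 6.01 and 4.50 and over 2D by 3.20 and 0.59 (calls against 2D that were lost without D7 replicate 1 and, for *Mmp9*, without any 1 library), and *Mmp9* fell against *in vivo* TECs (−1.97). The summed level of the list was 108 and 112 CPM *in vivo*, 18.5 and 19.3 CPM in 2D, 5.73 and 4.88 CPM in D3 organoids and 44.1 and 38.2 CPM in D7 organoids, and its most abundant gene was *Mmp9*, which epithelia also make. Thymocyte genes summed to 877 and 398 CPM *in vivo* and to 4.04 to 13.9 CPM in the cultures, and macrophage genes to 102 and 55.4 CPM *in vivo* and to 1.01 to 14.2 CPM in the cultures. The part of these cells in the *in vivo* levels of the set was not tested.

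The genes most like the 3 chosen genes were found by the Pearson correlation of log2(CPM + 1) over the 8 libraries, which fall into 4 groups, among the 10165 genes that reached 10 CPM in 2 or more libraries. These values describe the libraries and carry no test. *Scgb3a1* was closest to *Ccdc181* (r = 0.99, Spearman's rho 0.95) and *Spink8* (r = 0.99, rho 1.0), then *Ndufa12*, *Ckmt1* and *Tbc1d9b*. *Spink8*, a member of a family of secreted protease inhibitors, was at 1.91 and 3.23 CPM *in vivo*, 0.725 and 1.11 CPM in 2D, 2.19 and 3.62 CPM in D3 organoids and 18.3 and 20.7 CPM in D7 organoids. *Wfdc2* was closest to *Lbp* (r = 0.9985, rho 0.95), the secreted protein that binds lipopolysaccharide, then *Suco*, *Frmpd4*, *Gprin3* and *Itga1*. *Lbp* went from 1.04 and 1.26 CPM *in vivo* over 5.08 and 4.82 CPM in 2D and 15.8 and 18.1 CPM in D3 organoids to 30.3 and 28.2 CPM in D7 organoids. *Msln* was closest to *Map3k7cl* and *Wfdc18* (r = 0.99 and 0.98, rho 0.95 and 0.90), then *Slc38a10*, *Plekhf1* and *Adipor2*. By rank these genes were not set apart from many others. With *Scgb3a1*, 7 genes had a rho at least that of *Spink8* and *Ckmt1*, 132 that of *Ccdc181* and 885 that of *Tbc1d9b* (0.79). With *Wfdc2*, 126 genes had a rho at least that of *Lbp*. With *Msln*, 35 genes reached the rho of *Map3k7cl* and 492 that of *Adipor2* (0.79).

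On GRCm39, *Scgb3a1* (ENSMUSG00000064057) lies at chr11:49549630-49555945 and *Scgb1a1* (ENSMUSG00000024653) at chr19:9061000-9065326. *Wfdc2* (ENSMUSG00000017723) lies at chr2:164403475-164411377 and *Lcn2* (ENSMUSG00000026822) at chr2:32274645-32278264. *Ltf* (ENSMUSG00000032496) lies at chr9:110848339-110871835, *Muc1* (ENSMUSG00000042784) at chr3:89136354-89140688 and *Muc4* (ENSMUSG00000118672) at chr16:32555015-32602754. *Msln* (ENSMUSG00000063011) lies at chr17:25967312-25985619 and *Pigr* (ENSMUSG00000026417) at chr1:130754397-130779986. All 9 are annotated as protein-coding. No 50-base word from the last 500 bases of the transcripts of 7 of them occurred anywhere in a transcript of another gene. Of those of *Msln* 3.23% did and of those of *Pigr* 2.26% did, so that some of their reads could map to more than 1 place.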

How the data were processed

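Expression was measured in 8 libraries prepared with the QuantSeq 3′ method from 4 groups of 2. The authors aligned reads to GRCm39 with STAR and deposited raw counts per Ensembl gene, with no normalization. The annotation release, whether counting used the strand, and how reads with several matches were handled are not given in the sources used here. Symbols and positions came from GENCODE M39, which matched 56236 identifiers and left 687 unmatched.

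Counts were fitted in R 4.3.3 with edgeR 4.0.16, using TMM factors of 0.880 to 1.09 and the quasi-likelihood test in 1 model of the 8 libraries. The 14504 genes that reached 1 CPM in 3 or more libraries were kept, p values were adjusted by Benjamini-Hochberg over them, and the threshold was 0.05. Of the 9 genes, 8 passed this filter, some of them only through the groups in which they were high. Replicates of a group differed by more than sampling noise (chi-square of 7.43 to 9.42 per degree of freedom). Alternatives used limma 3.58.1 and DESeq2 1.42.0, other scalings and filters, a replicate block and each library left out. Values and figures were made in Python 3.11.15.

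The 9 genes and the 21 gene lists were chosen with earlier results of these data known, and counts over a list are descriptions. The text names the 9 genes and the 5 genes most like each of the 3 chosen genes. For the lists, candidates were the 3 most abundant genes and up to 2 genes each way with the largest change in D7 organoids. The latter had to pass the threshold with at least 10 CPM in the higher group. Only some of these candidates are named. Others are named as defining markers, as limits or as singled out after their values were seen. RefSeq promoter sequences come from a GRCm38.p6 table and were placed on GRCm39 by exact match.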

Additional observations from a re-analysis of the deposited data

How the results depend on the processing

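The numbers of tested genes of the set past the threshold (5 in D7 organoids against *in vivo* TECs, 2 in D7 organoids against 2D, 1 in D3 organoids against *in vivo* TECs, 3 in D3 organoids against 2D, 5 in D7 against D3 organoids and 5 between *in vivo* TECs and 2D) stayed within 1.5 times under other size factors, library size alone, limma-voom and removal of ribosomal RNA genes. Library size alone moved the median of all genes for D7 organoids against 2D from 0.10 to 0.31 and turned no direction in the set. With at least 10 CPM in at least 2 libraries, which left 5 genes of the set to fit, the numbers were 2, 1, 1, 1, 2 and 3 in that order. With only the 4 libraries of the groups compared, which left 3 to 6 genes to fit, they were 2, 1, 1, 1, 3 and 3, and the 1 gene against 2D was *Lcn2*, then lower in D7 organoids (log2 fold change −0.42, adjusted p = 0.023 in edgeR). For D3 organoids against *in vivo* TECs the number was 0 with the DESeq2 Wald test and 2 with no filter, the addition being *Muc4*. Leaving out 1 library gave 3 to 5, 1 to 2, 0 to 2, 3 to 4, 2 to 4 and 5 to 5, in the same order. The lowest values came without D7 replicate 2 in both comparisons with uncultured TECs and 2D, without D3 replicate 2 in D3 organoids against *in vivo* TECs, and without D7 replicate 2 or either D3 library between D7 and D3 organoids.

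Directions reversed only where a library was left out and a difference was not past the threshold or not tested. Over the libraries left out, *Ltf* in D7 organoids over 2D ranged from −0.11 (without D7 replicate 2) to 1.65. In D3 organoids over *in vivo* TECs, *Scgb3a1* ranged from −0.030 to 1.42, *Ltf* from −1.28 to 0.32, *Msln* from −0.037 to 0.32 and *Pigr* from −0.19 to 3.67, the sign turning without D3 replicate 2 or, for *Pigr*, D3 replicate 1. *Pigr* in *in vivo* TECs over 2D ranged from −1.78 (without *in vivo* replicate 2) to 1.78. Same-numbered libraries deviated together with correlations of 0.026 to 0.132 and share only a number. The replicate block gave 5, 2, 1, 3, 5 and 6 genes in that order, the addition being *Scgb3a1* between *in vivo* TECs and 2D (log2 fold change 3.82, adjusted p = 0.00091 in edgeR), which also passed under the DESeq2 Wald test and with no filter. The choice of *Scgb3a1*, *Wfdc2* and *Msln* had also drawn on these libraries. Their part in the numbers between *in vivo* TECs and 2D is therefore a description. With 2 libraries a group, levels of a few reads such as those of *Scgb1a1* limit what can be seen.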

Other observations

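All 9 genes of the set were higher in replicate 2 than in replicate 1 of D7 organoids, while 7194 of 14504 tested genes were. Of the 8 with reads in both D7 libraries, 3 (*Scgb3a1*, *Ltf* and *Muc1*) differed more than 3-fold between the 2 libraries, which 3.3% of the tested genes did. The airway genes *Sftpd* (39 and 203 reads) and *Bpifb1* (0 and 60 reads) and the antimicrobial gene *Reg3g* (330 and 1229 reads) also had more reads in D7 replicate 2, whereas *Wfdc2*, *Lcn2*, *Muc4*, *Msln* and *Pigr* differed by at most 1.26-fold in CPM. *Cyp2f2* (228 and 295 CPM) was between them. *Foxa1*, a transcription factor of airway and gut epithelium, ran the other way, with 45.8 and 22.5 CPM. The genes were picked out after their values were seen, and the difference between 2 libraries has no replicate check.

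In 2D, 5 of the 9 genes were higher in replicate 1 and 3 in replicate 2, and 1 of the 7 with reads in both libraries differed more than 2-fold. *In vivo*, *Lcn2* and *Pigr* were 11.9-fold and 12.96-fold higher in replicate 2, with 8 and 117 reads and 1 and 16 reads, while *Wfdc2* and *Msln* differed there by less than 1.01-fold.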
